A study of Paralichthys olivaceus with 6 samples.

Results

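The mRNA of 4 receptor genes was followed in ocular-side skin of the Japanese flounder, Paralichthys olivaceus, in albino fish and in fish of normal pigmentation. They were GPR21 (GS_002614) and GPR61 (GS_010316), which had lower values in albino skin, and PTGER3 (GS_013015) and P2RY8 (GS_006488), which had higher values. These 4 genes, of 22498 in the count table, were chosen from the study's own comparison of albino with normal fish in these libraries. Their differences between the groups are therefore given as a description, with the counting error of each fish, and support nothing beyond the choice. All 4 passed the filter on low counts, which kept 16260 genes. The names are matches of the flounder genes to a human (GPR21), mouse (GPR61), bovine (PTGER3) and chicken (P2RY8) protein, so the orthology of each gene rests on that match.

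The libraries came from 3 normal fish (PO_con1, PO_con2 and PO_con3) and 3 albino fish (PO_alb1, PO_alb2 and PO_alb3), with 1 library for each fish. All 6 fish were 5 months old and belonged to 1 full-sib family. The normal fish are given as wild type in the labels and the albino fish as albino, with no mutation or treatment named for either group. The pieces of skin held several cell types, and in such bulk RNA fewer cells of a type and less RNA per cell cannot be told apart.

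All 4 genes encode G protein-coupled receptors, membrane proteins that pass an outside signal to G proteins within the cell. GPR21 and GPR61 are orphan receptors with no agreed ligand, and both signal without an added ligand in cell assays. PTGER3, the EP3 receptor, binds prostaglandin E2 and acts mainly through inhibitory G proteins that lower cyclic AMP. P2RY8 is grouped with the purine P2Y receptors by sequence. In human it is best known from B cells of germinal centres, where it answers to a glutathione conjugate rather than a nucleotide. In fish pigment cells the level of cyclic AMP governs whether pigment granules spread through the cell or gather at its centre.

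The total counts per library lay between 17905084 and 20025047, a range of 1.12-fold. Scaling by TMM (trimmed mean of M-values, which corrects for differences in library composition) used factors between 0.791 in PO_alb3 and 1.27 in PO_con3, so that the scaled library sizes spanned 1.62-fold. Normalized counts below are counts scaled in this way to the mean scaled library size. RPKM (read counts relative to both gene length and library total) is used where genes are compared with each other. Intervals are exact 95% intervals on read counts and cover counting error only. The tissue label was checked on genes of epithelium and muscle. The keratin KRT13 (GS_014679) had a mean RPKM of 759 in normal and 245 in albino skin, and the muscle gene desmin (DES) 747 and 1401, so both groups held epithelial and muscle RNA.

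GPR21 has been studied in mouse for a part in glucose metabolism. Its reads numbered 64, 70 and 104 in PO_con1, PO_con2 and PO_con3. In the albino fish they numbered 8, 18 and 10 in PO_alb1, PO_alb2 and PO_alb3. Every normal fish was above every albino fish, and the intervals of the groups stayed apart. Normalized counts were 68.0, 69.3 and 83.9 in the normal fish, and the lowest lower bound among them was 52.4. In the albino fish they were 7.98, 17.3 and 13.1, and the highest upper bound was 27.3. The highest albino fish, PO_alb2, was thus 3.94-fold below the lowest normal fish, PO_con1. The group means were 73.8 ± 8.81 and 12.8 ± 4.65 normalized counts (SD, n = 3). The log2 fold change was −2.52, with a standard error (SE) of 0.30. Over all reads of a group, the normal level of GPR21 was 5.83 times the albino level, with a counting interval from 4.09 to 8.52.

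GPR61 is known in mouse mainly from the brain, where its loss leads to overeating and obesity. Its reads numbered 28, 29 and 46 in PO_con1, PO_con2 and PO_con3. Only 5, 9 and 7 reads were counted in PO_alb1, PO_alb2 and PO_alb3. The groups did not overlap, but the gap was narrow on the scale of counting error. Normalized counts of GPR61 were 29.8, 28.7 and 37.1 in normal fish, with a lowest lower bound of 19.2. They were 4.99, 8.63 and 9.15 in albino fish, with a highest upper bound of 18.8. All 9 of 9 pairs of a normal and an albino fish therefore had intervals apart, by the smallest margin in PO_con2 against PO_alb3. The group means were 31.9 ± 4.57 and 7.59 ± 2.27 normalized counts (SD, n = 3), and the log2 fold change was −2.07 (SE 0.33). The pooled normal level was 4.32 times the albino level (2.68 to 7.28). The RefSeq gene table of the flounder lists both gpr61 and a gpr61-like gene (gpr61l). Which of them GS_010316 is was not settled. How reads of near-identical stretches were counted is not given in the sources used here, and such reads could affect its count.

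PTGER3 had the fewest reads of the 4 genes in normal skin. Its reads numbered 5, 10 and 8 in PO_con1, PO_con2 and PO_con3, and 34, 50 and 23 in PO_alb1, PO_alb2 and PO_alb3. Every albino fish was above every normal fish. Normalized counts were 5.32, 9.91 and 6.45 in normal fish, with a highest upper bound of 18.2. In albino fish they were 33.9, 47.9 and 30.1, with a lowest lower bound of 19.1. On normalized counts the intervals were again apart in 9 of 9 pairs of fish, and the closest were PO_con2 and PO_alb3. This depends on the scaling. On RPKM the interval of PO_alb3 (lower bound 0.718) overlapped those of PO_con2 and PO_con3 (upper bounds 0.894 and 0.771). The means were 7.23 ± 2.39 and 37.3 ± 9.41 normalized counts (SD, n = 3), which is 2.36 on the log2 scale (SE 0.36). The pooled albino level was 5.28 times the normal level, with an interval from 3.34 to 8.68. The 23 normal reads set most of that width.

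P2RY8 had the most reads of the 4 genes and the smallest difference. Its reads numbered 29, 40 and 81 in PO_con1, PO_con2 and PO_con3, and 124, 95 and 80 in PO_alb1, PO_alb2 and PO_alb3. In reads, PO_con3 was thus level with PO_alb3. Normalized counts were 30.8, 39.6 and 65.3 in normal fish and 124, 91.1 and 105 in albino fish. After scaling the groups did not overlap, with a gap of 1.39-fold between PO_con3 and PO_alb2. The intervals of that pair did overlap (upper bound 81.2 in PO_con3, lower bound 73.7 in PO_alb2), and 8 of 9 pairs were apart. The means were 45.3 ± 17.9 and 106.5 ± 16.4 normalized counts (SD, n = 3), and the log2 fold change was 1.22 (SE 0.29). The pooled albino level was 2.26 times the normal level (1.85 to 2.77), and 2.07 times (1.69 to 2.53) when libraries were scaled by their totals alone. Whether PO_con3 lies below the albino fish therefore depends on the scaling. On RPKM, which the authors scaled by library totals, PO_con3 had 4.38 and PO_alb3 4.36, and the groups overlapped.

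**Figure D1:**
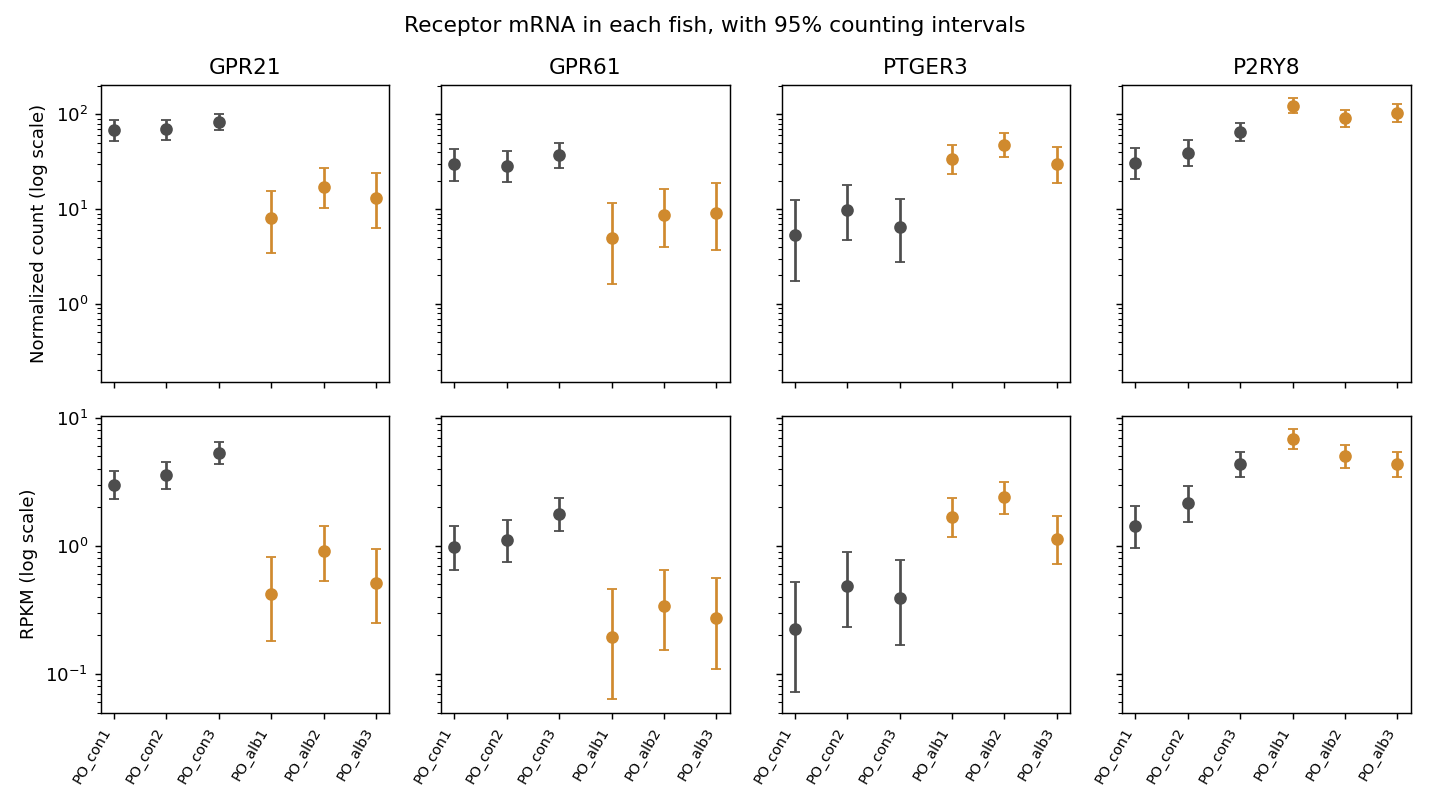
Normalized count (upper row) and RPKM (lower row) of GPR21, GPR61, PTGER3 and P2RY8 in each fish, on log axes, with normal fish in grey and albino fish in orange. Points are single fish and bars are exact 95% counting intervals. The points of the groups are apart for GPR21, GPR61 and PTGER3 on both scales, whereas PO_con3 and PO_alb3 are level for P2RY8 on RPKM. For PTGER3 on RPKM, the bar of PO_alb3 overlaps those of PO_con2 and PO_con3.

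In the test across all genes (edgeR's quasi-likelihood test, adjusted over 16260 genes), 2 of the 4 receptors passed an adjusted p of 0.05 on the lower side, where 0.91% of all genes did. These were GPR21 (adjusted p = 0.0087) and GPR61 (adjusted p = 0.035). On the higher side, where 0.129% of all genes passed, 1 receptor did, PTGER3 (adjusted p = 0.026). P2RY8 did not pass (adjusted p = 0.17). Normalized counts of the groups did not overlap for 4 of 4 receptors, against 7.47% of genes with lower and 5.73% with higher albino values. On RPKM the groups were apart for 3 of 4, against 5.72% of genes lower and 2.34% higher. Since the members were chosen from the same contrast, nothing is read from these counts. The calls of GPR61 and PTGER3 were lost when any single fish was left out (adjusted p of 0.071 to 0.15 for GPR61 and 0.064 to 0.10 for PTGER3). The call of GPR21 was lost without PO_con2 (adjusted p = 0.055). Scaling by library totals alone also ended the calls of GPR61 and PTGER3 (adjusted p of 0.066 and 0.089), and DESeq2 called P2RY8 (adjusted p = 0.020).

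**Figure D2:**
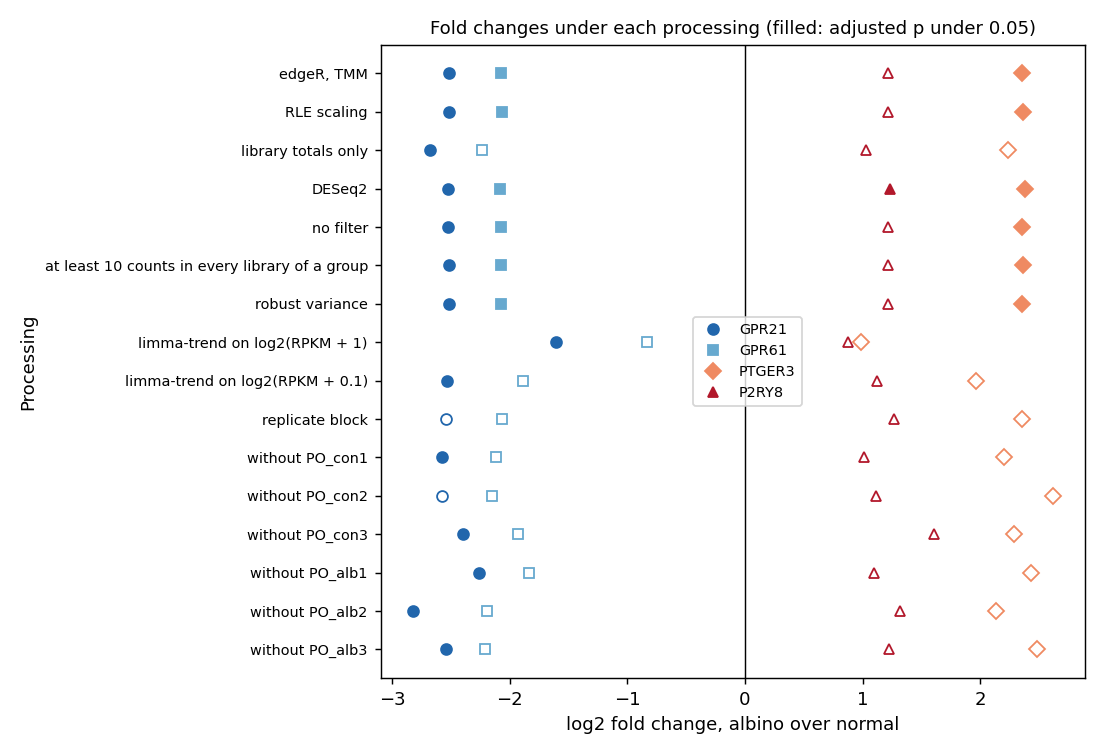
The log2 fold change of albino over normal fish (horizontal axis) for each receptor under every processing run (vertical axis), where filled symbols mark an adjusted p under 0.05 and open symbols do not. The 4 receptors keep their side of 0 in all 15 alternatives, whereas the calls of GPR61 and PTGER3 are lost in each row that leaves out a fish.

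Levels were next compared between the genes per length. The choice used the direction of the difference between the groups in these same libraries, which also bears on the order within a group. Both the order and its shifts between the groups are therefore given as a description. The lengths behind the RPKM are coding lengths without untranslated ends, and they were 1068 bases for GPR21, 1425 for GPR61, 1122 for PTGER3 and 1014 for P2RY8. These correspond to 356, 475, 374 and 338 codons. None of the 4 receptors was abundant. Over all 22498 genes of the table the median RPKM was 3.60 in normal and 3.11 in albino skin. GPR21 lay close to that median in normal skin, with a mean RPKM of 3.97 ± 1.22 (SD, n = 3) at the percentile 51.8 of all genes, and at 0.614 ± 0.257 and the percentile 30.6 in albino skin. GPR61 was at 1.29 ± 0.423 and 0.269 ± 0.0715. PTGER3 was at 0.367 ± 0.134 in normal and 1.74 ± 0.631 in albino skin, which moved it from the percentile 25.9 to 40.7. P2RY8 was the most abundant of them in albino skin, with a mean RPKM of 5.41 ± 1.28 at the percentile 61.4, against 2.65 ± 1.54 and the percentile 44.4 in normal skin.

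The order of the RPKM levels was the same in all 3 fish of a group and differed between the groups. In each normal fish GPR21 was highest, followed by P2RY8, GPR61 and PTGER3. In each albino fish P2RY8 was highest, followed by PTGER3, GPR21 and GPR61. PTGER3, the prostaglandin receptor, was thus last in normal skin and second in albino skin. Not every step of the order was larger than the spread between fish. In normal skin the RPKM ranges of GPR21 (2.99 to 5.34) and P2RY8 (1.43 to 4.38) overlapped, as did those of P2RY8 and GPR61 (0.981 to 1.77). Only PTGER3, with 0.223 to 0.486, stood clear of its neighbour. In albino skin no neighbouring ranges overlapped, with P2RY8 at 4.36 to 6.83, PTGER3 at 1.13 to 2.39, GPR21 at 0.418 to 0.905 and GPR61 at 0.196 to 0.339.

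Because both genes of a pair are read from one library, their ratio within a fish does not depend on the scaling between libraries. The reads of P2RY8 for each read of GPR21 were 0.453, 0.571 and 0.779 in PO_con1, PO_con2 and PO_con3. They were 15.5, 5.28 and 8.0 in PO_alb1, PO_alb2 and PO_alb3. The highest normal upper bound was 1.05 and the lowest albino lower bound was 3.17, so the groups were apart in this ratio. PO_con3 and PO_alb3 were level in P2RY8 reads, and their distance in the ratio came from GPR21, with 104 and 10 reads. The reads of PTGER3 for each read of GPR61 were 0.179, 0.345 and 0.174 in the normal fish. They were 6.80, 5.56 and 3.29 in the albino fish. The intervals of the groups were apart here as well (highest normal upper bound 0.728, lowest albino lower bound 1.36). That ratios of a higher to a lower receptor differ between the groups follows from how the receptors were chosen, and the size of the difference is a description.

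As a single measure over the 4 genes, the share of their reads that came from PTGER3 and P2RY8 was calculated for each fish with Clopper-Pearson intervals. It was 27.0% (19.5 to 35.6) of 126 reads in PO_con1, 33.6% (26.04 to 41.7) of 149 in PO_con2 and 37.2% (31.1 to 43.7) of 239 in PO_con3. It was 92.4% (87.4 to 95.9) of 171 reads in PO_alb1, 84.3% (78.0 to 89.4) of 172 in PO_alb2 and 85.8% (78.3 to 91.5) of 120 in PO_alb3. The groups were far apart in this share, which follows from how the receptors were chosen, and its size is a description. The summed normalized counts of the 4 receptors overlapped, with 134, 148 and 193 in normal fish and 171, 165 and 157 in albino fish. Genes chosen in both directions are in this sum, so their differences offset each other, and the overlap is a description too.

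**Figure D3:**
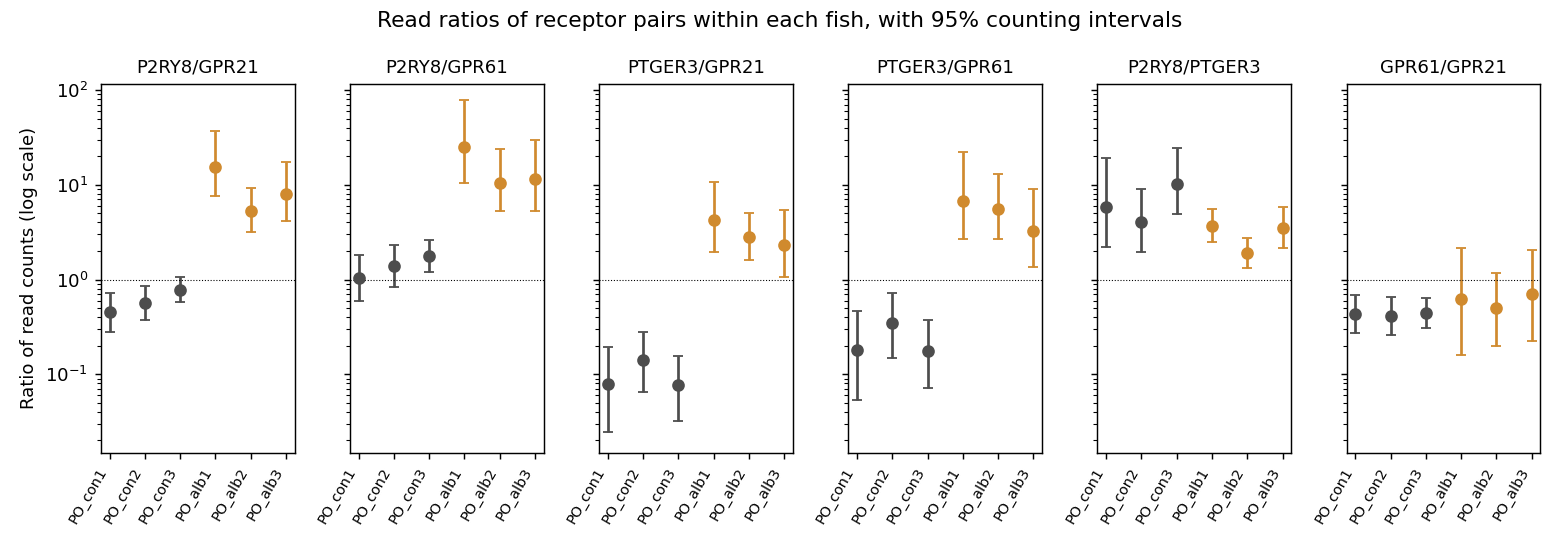
Ratio of the read counts of 2 receptors within each fish (log axis), for 6 pairs, with exact 95% counting intervals, normal fish in grey and albino fish in orange. The dotted line marks equal reads. The 4 pairs of a higher with a lower receptor separate the groups, whereas the intervals of GPR61 over GPR21 overlap in all fish.

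Within each direction the receptors were set beside each other, as a description. The choice used the direction, a minimum size and an adjusted p of these folds. GPR61 had 0.438, 0.414 and 0.442 reads for each read of GPR21 in the normal fish, nearly the same in all 3. In the albino fish it had 0.625, 0.50 and 0.70, from 5 to 9 reads of GPR61, above every normal fish but with wide intervals. Over the pooled reads the ratio was 1.35 times as high in albino as in normal fish, with an interval from 0.710 to 2.50 that includes 1. The pooled reads therefore do not settle whether the folds of the 2 orphan receptors differed. For each read of PTGER3 there were 5.8, 4.0 and 10.1 reads of P2RY8 in normal fish and 3.65, 1.90 and 3.48 in albino fish. The fold of PTGER3 was 2.33 times that of P2RY8 over the pooled reads (1.41 to 3.998), an interval that covers counting error and not the spread between fish. The fish of the groups did not overlap in this ratio, although intervals overlapped between them, as in PO_con2 and PO_alb1.

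The spread between fish of a group was set beside the spread that counting alone would give. For GPR21 the coefficient of variation of normalized counts was 11.9% in normal fish, where counting alone gives 11.2%, and 36.4% in albino fish against 28.9%. GPR61 varied by 14.3% and 29.9%, against 17.1% and 37.8% from counting. PTGER3 varied by 33.1% in normal fish, against 36.1%, and by 25.2% in albino fish, against 16.7%. After TMM scaling the spread of these 3 genes was thus near the counting error in most groups. The genes were chosen from calls on these same fish, which favours a small spread within groups. Each value also rests on 3 fish, so it is a description. The spread depends on the scaling as well. On RPKM, scaled by library totals, normal fish had 3.97 ± 1.22 for GPR21 and 1.29 ± 0.423 for GPR61 (SD, n = 3), a wider relative spread. On normalized counts P2RY8 in normal fish stood out most, at 39.6% against 14.1% from counting, which came from the high value of PO_con3. Without PO_con3 the log2 fold change of P2RY8 was 1.60, against a range of 1.01 to 1.32 when any other fish was left out. PO_con3 also had the highest normalized counts of GPR21 and GPR61 among normal fish, but not of PTGER3.

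Several marker sums moved with PO_con3. Its summed normalized counts of 3 keratins were 40306, against 23692 in PO_con1 and 26779 in PO_con2, and those of 4 muscle genes were 12387, against 24936 and 22307. Nearly all of the keratin sum came from KRT13 (GS_014679), and nearly all of the muscle sum from DES, in both groups. In PO_con3 the sum over 5 markers of pteridine pigment cells was 3747, against 2010 and 2197, and the sum over 9 melanophore markers 1639, against 1549 and 1198. Between the groups, the sum over 9 melanophore markers was 1198 to 1639 in normal and 72.9 to 152 in albino fish, with 8 of 9 lower. Every marker had reads in the albino group, but MITF had only 1 and TYR and OCA2 4 each. The largest part of the albino sum was TRPM1, with a mean of 58.5 normalized counts. TYRP1 (GS_009038) varied widely there, at 9.48 ± 11.7 (SD, n = 3). The sum over 5 markers of pteridine pigment cells was 2010 to 3747 and 4.79 to 11.97, with 5 of 5 lower and a GCH1 gene (GS_005903) at 0 reads in albino fish. Keratins were at 8355 to 13761 in albino fish (2 of 3 lower) and muscle markers at 33906 to 48087 (1 of 4 higher, against 12387 to 24936 in normal fish). These markers came from the study's table of changed genes, so their direction is not independent evidence, and their part in the receptor values was not tested. Among normal fish, GPR61 and the melanophore sum had the same order (PO_con3, PO_con1, PO_con2). GPR21 and the pteridine sum shared another (PO_con3, PO_con2, PO_con1), and neither receptor had the order of the other sum. PO_con1 and PO_con2 lay within counting error of each other, at 29.8 and 28.7 normalized counts of GPR61 and 68.0 and 69.3 of GPR21, so their order is not resolved. Among albino fish PO_alb1 had the highest melanophore sum, 152 against 72.9 in PO_alb2 and 94.1 in PO_alb3. It also had the lowest normalized counts of both receptors, from 5 reads of GPR61 and 8 of GPR21. Its counting intervals for them (upper bounds 11.6 and 15.7) overlapped those of PO_alb2 and PO_alb3, so this order is not resolved either.

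For P2RY8, a receptor of B cells in human, the leukocyte markers are given by kind. The immunoglobulin heavy chain genes fell in albino skin. IGHM (GS_000622) went from 110 ± 14.7 to 18.9 ± 14.1 normalized counts (SD, n = 3, log2 fold change −2.52, adjusted p = 0.044), and a second heavy chain gene (GS_000623.1) had a log2 fold change of −4.61 (adjusted p = 0.0049). IL1B (log2 fold change −3.13, adjusted p = 0.043) and FCAMR (−1.87, adjusted p = 0.011) fell as well, and NCF1 was at −1.86 (adjusted p = 0.16). The lysozyme gene LYG rose (log2 fold change 1.74, adjusted p = 0.023). LYZC and GROA were at 1.43 and 1.37 (adjusted p of 0.068 and 0.098). Of the 8 leukocyte markers 4 passed on the lower side, 1 on the higher side and 3 on neither, and each had reads in the albino group. By log2 fold change 5 of the 8 lay below 0 and 3 above. Their sum came mostly from the lysozyme genes LYG and LYZC and does not show the direction of most markers. It was 2596 to 2993 in normal fish and 9798, 6802 and 5854 in PO_alb1, PO_alb2 and PO_alb3. PO_alb1 had the highest P2RY8 value and the highest sum, whereas PO_alb2 and PO_alb3 stood in opposite order in the 2 measures. The part of these cells in the P2RY8 values was not tested.

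Most other G protein-coupled receptors named in the study's table of changed genes were lower in albino skin. Of 12 such receptors, 7 were lower, 0 were higher and 5 did not pass, with a median log2 fold change of −2.28 against 0.01 for all genes tested. The list was picked from the study's calls on these libraries, which fixes much of its direction. Adrenergic ADRA2B, which lowers cyclic AMP, had a log2 fold change of −4.89 (SE 0.32). The melanocortin receptor MC5R had 91 reads in normal and 0 in albino fish, at least 26.7-fold lower against a floor of 3 reads over the group. Of the other 10 receptors with lower albino values, 4 had a more negative log2 fold change than GPR21 and 6 than GPR61, so both orphan receptors lay within the range of −4.89 to −1.10. Among the 12, GRM3, a metabotropic glutamate receptor, was the only one with the direction of PTGER3 and P2RY8, at 1.48 (SE 0.34, adjusted p = 0.15). Of 6 receptors of other classes in the same table, a list added after its values were seen, 3 were lower, 1 was higher and 2 passed on neither side. The one that rose was GLRK (GS_006975), a probable glutamate receptor of the ion channel type, from 884 ± 228 to 3713 ± 865 normalized counts (SD, n = 3, log2 fold change 2.07, adjusted p = 0.011). Those that fell were the growth factor receptor KIT of pigment cells (−2.16), the prolactin receptor PRLR (−2.13) and the receptor kinase ALK (−2.29). Among the 16 G protein-coupled receptors, ordered by mean RPKM, PTGER3 moved from place 15 in normal to place 4 in albino skin and P2RY8 from 6 to 3. GPR21 moved from 5 to 7 and GPR61 stayed at 11, while 2 endothelin receptor genes (EDNRB, a receptor of pigment cell precursors) kept places 1 and 2. Most receptors ranked here were chosen with lower albino values, so the moves in place follow in large part from the choice. GPR61 kept its place with a log2 fold change of −2.07.

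**Figure D4:**
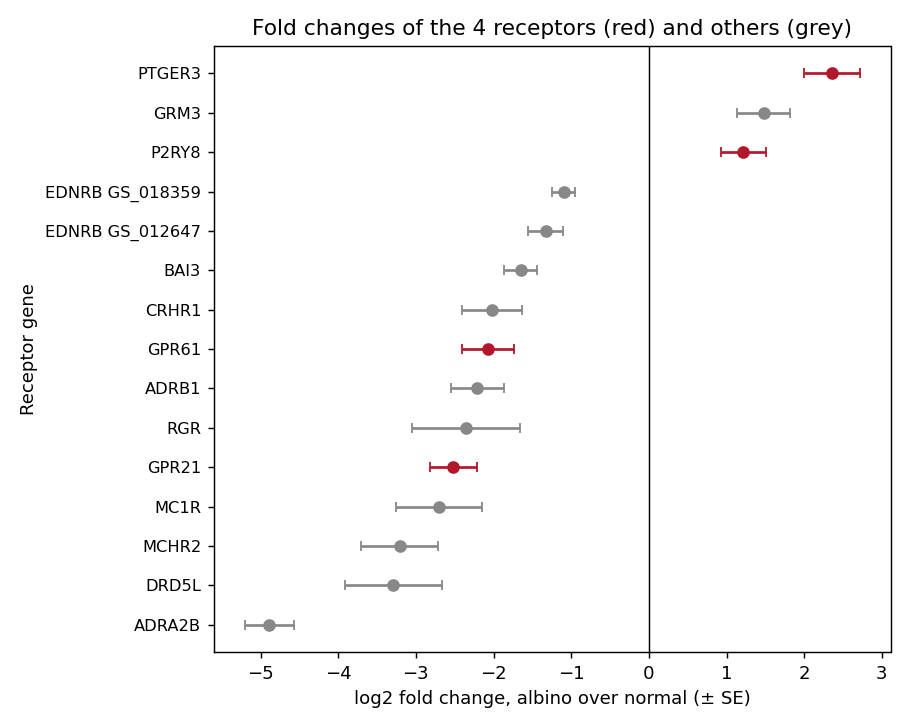
The log2 fold change of albino over normal fish with its SE (horizontal axis) for the 4 receptors (red) and 11 other G protein-coupled receptors of the study's table of changed genes (grey). MC5R, with 0 albino reads, is left out. PTGER3, GRM3 and P2RY8 stand above 0 and all others below.

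The proteins that act below such receptors were described by lists taken from the same table, and the same limit on their direction holds. Of 7 genes of G protein and cyclic AMP signalling, 6 were lower and 1 did not pass, with a median log2 fold change of −3.07. They include ADCY5, an adenylyl cyclase that makes cyclic AMP and is held back by inhibitory G proteins (−3.38, SE 0.25, adjusted p = 0.00065). The subunit PRKAR1B of the kinase that cyclic AMP activates was at −4.17 (SE 0.20, adjusted p = 0.00019). The phosphodiesterases PDE8B and PDE10A, which break cyclic nucleotides down, were at −1.92 and −1.84. PTGER3, itself a receptor that lowers cyclic AMP, had its higher values in the fish in which these genes had their lower ones. That follows from how PTGER3 and the list were chosen, and a link between them was not tested.

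For the ligand side of PTGER3, only 2 enzymes of arachidonate, the fatty acid from which prostaglandins are made, were in the list, and neither makes prostaglandin E2. ALOX15B, a lipoxygenase, fell from 549 ± 12.9 to 45.1 ± 10.8 normalized counts (SD, n = 3, log2 fold change −3.59, adjusted p = 0.00022). CYP2J2, an epoxygenase, was at 122 ± 21.3 and 246 ± 56.4 (log2 fold change 1.01, adjusted p = 0.11). Of 4 genes of nucleotide and purine handling, 2 were lower and 2 did not pass, with a median of −1.94. XDH, the last enzyme of purine breakdown to urate, was at −3.69 (adjusted p = 0.0013), and PANX3, a channel of the pannexin family, at −1.61 (adjusted p = 0.029). PNP, which splits purine nucleosides, was at −2.16 (adjusted p = 0.064).

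The genes most like each receptor were taken among 196 tested genes with a name in the study's table of changed genes, by Pearson's r of log2 normalized counts (scaled to library size) over the 6 libraries. The points share the split into 2 groups of 3 fish, and the candidates were themselves chosen for a difference between the groups, so a high r in part restates that split. GPR21 and GPR61 shared their closest genes. FSTL5 (GS_013990), a follistatin-like protein, had an r of 0.998 with GPR21 and 0.997 with GPR61, and the transporter SLC6A13 (GS_014376), which carries GABA, 0.993 and 0.997. The third was MAP6 for GPR21 (0.991) and XDH for GPR61 (0.993). FSTL5, SLC6A13 and MAP6 had very few reads in albino fish, so their albino values lie near the floor of counting. Their high r is therefore not read as close co-expression. The closest genes were less close for the receptors with higher albino values, for which fewer of the candidates shared the direction. For PTGER3 they were AQP7, a water and glycerol channel (0.974), NKX1-1, a homeobox gene (0.972), and ARL14 (0.960). NKX1-1 lay at the floor of counting in normal fish, so the same limit holds for its r. For P2RY8 they were MSLNL (0.971), FABP2, an intestinal fatty acid-binding protein (0.969), and the carbonic anhydrase CA4 (0.966). Over all genes tested, an r over 0.95 was reached by 0.634% with GPR21, 0.627% with GPR61, 0.209% with PTGER3 and 0.203% with P2RY8. More of these genes were called lower (148) than higher (21) in albino skin, and the part of that imbalance in the shares was not tested.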

How the data were processed

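RNA of ocular-side skin was sequenced as 1 paired-end library per fish. The authors mapped reads with TopHat2 2.0.9 on a Bowtie2 2.0.6 index, assembled transcripts with Cufflinks 2.1.1 and counted reads per gene with HTSeq. The deposited counts are whole and unscaled, and the deposited RPKM equal these counts divided by coding length and total counts. The genome build and strand setting are not given in the sources used here, so overlapping antisense genes could share reads.

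Counts of the 6 libraries were tested in R 4.3.3 with edgeR 4.0.16 (filterByExpr, TMM, quasi-likelihood test, albino against normal, Benjamini-Hochberg over 16260 genes, threshold 0.05). With 3 fish per group, the p-values set the group difference against the spread between these fish, moderated by that of all genes tested. Alternatives used RLE scaling, library totals, DESeq2 1.42.0, other filters, a robust variance, limma 3.58.1 on log2(RPKM + 1) and log2(RPKM + 0.1), the replicate number as a block, and each fish left out. Intervals were exact Poisson or Clopper-Pearson, and those that compared a pooled read ratio between the groups were exact conditional intervals of Fisher's test. Plots used Python 3.11.15 and matplotlib 3.10.9. The 4 receptors, the lists and the rule for named genes (the receptors, list members needed for a role, and the 3 most alike genes) were chosen with earlier results of these data known.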

Additional observations from a re-analysis of the deposited data

How the results depend on the processing

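The log2 fold changes of the 4 receptors kept their sign in 60 of 60 values from 15 alternatives. With 148 genes lower and 21 higher in the report, DESeq2 called 272 and 84, limma on log2(RPKM + 1) 89 and 7, and the replicate block 53 and 4. Library totals called 7 higher and limma on log2(RPKM + 0.1) 6. Leaving out a fish gave 67 to 138 lower and 2 to 14 higher. Of the receptors, 2 lower and 1 higher were called in the report. DESeq2 called 2 higher, with P2RY8 added (adjusted p = 0.020). Library totals and both limma fits called 1 lower and 0 higher, the block 0 and 0, and leaving out a fish 0 to 1 lower and 0 to 0 higher. At an unadjusted p under 0.05, all of these fits kept 2 lower and 2 higher. The share of all genes at that threshold was not calculated, and the receptors were chosen from this contrast, so nothing is read from these counts. Left-out fish moved the log2 fold change of GPR21 between −2.82 and −2.26, GPR61 between −2.21 and −1.83, PTGER3 between 2.13 and 2.62, and P2RY8 between 1.01 and 1.60. The cause of these losses was not tested, except that leaving out a fish leaves 2 in a group. The median log2 fold change of all genes was 0.01 under TMM and −0.13 under library totals. Relative to it, the receptors were at −2.55, −2.11, 2.36 and 1.16 under totals, in the order GPR21, GPR61, PTGER3 and P2RY8. Fish with the same number had r across genes of −0.17, 0.18 and −0.44 in their deviations from the group mean. Fish with different numbers had −0.30 to 0.43. With 3 fish per group these values cannot settle whether the numbers pair fish. The smaller limma folds on log2(RPKM + 1), such as −0.84 for GPR61, come with a pseudocount near or above these levels. The 5 to 10 reads per fish of GPR61 in albino and PTGER3 in normal skin limit the precision of both.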
